A study of Mus musculus with 28 samples.

Results

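The genes described here are 43 type I interferon-stimulated genes, chosen by name as genes that interferon is known to induce. The choice was made with earlier results of these data known, so shares set against those over all genes are not an independent test. All 43 were found among the 53647 gene IDs of the count matrix, of which 52093 carry a symbol, and all 43 passed the filter on low counts in every fit. They were followed by RNA-seq in 28 libraries of sorted mouse brain vascular cells, in 6 groups that cross the sorted cell type with the state of the brain. By role, 4 of the genes are transcription factors, 2 are RNA sensors, 21 are antiviral effectors such as the IFIT, OAS, MX and IFITM families, 9 belong to the ISG15, ubiquitin and PARP9-DTX3L systems, and 7 are others.

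The mice carried PDGFRβ-CreERT2 and a Rosa-tdTomato reporter and received 2 mg of tamoxifen a day for 5 days, so that cells with an active Pdgfrb promoter turned red, tumor-bearing or not. Brain metastases (BrM) were grown by intracardiac injection of Sv2T3-BrM1 cells, a lung cancer line, or PyMT-BrM3 cells, a breast cancer line, and non-tumor brains served as controls. Each metastasis model thus rests on 1 cell line. From brains cleared of cells with CD45, CD11B or EPCAM, pericytes and other mural cells were taken as PDGFRβ-tdTom+ and endothelial cells as CD31+. The PDGFRb sort gave 4 libraries of lung BrM, 4 of breast BrM and 5 of non-tumor brain, and the CD31 sort gave 5, 5 and 5. A library is named by its mouse number, and the lung BrM libraries 55169-70 and 56195-56520 carry 2 mouse numbers each.

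Type I interferons bind the receptor IFNAR1-IFNAR2 and, through the kinases JAK1 and TYK2, activate the transcription factor complex ISGF3, of which STAT2 and IRF9 are parts. ISGF3 binds the interferon-stimulated response element (ISRE) of its target genes, whose products sense viral RNA, block viral replication, tag proteins with ISG15 and, through IRF7, amplify the response. In brain endothelium, type I interferon is known to tighten the blood-brain barrier, and a low level of the response is kept up without infection.

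The RefSeq promoter table (GRCm38.p6, 250 bases before to 50 after a gene's start) held 40 windows for 33 of the 43 genes. The core of the ISRE was searched on both strands as GAAA, any 2 bases and GAAA again (TTTC, any 2 bases and TTTC in reverse), and the gamma-activated site (GAS), an element of genes that interferon-gamma induces, as TTCNNNGAA, whose reverse is itself. The ISRE core was found in 14 of the 33 genes (42.4%) and in 1079 of 27025 genes of the table (3.99%). The GAS core was found in 8 of the 33 (24.2%) and in 2582 of the 27025 (9.55%). These are matches of letters, not binding sites. Windows are shown for 3 genes with an ISRE core whose levels are described at length. They are also shown for 2 genes without it whose levels in CD31 lung BrM moved in another direction than most. Capitals mark the ISRE cores and, in Irf8, the GAS cores. All sequences run 5′ to 3′ along the gene's strand, and distances count to the start of the match nearest the 5′ end of the window.
Ifit1, chr19:34640639-34640938 on the plus strand, has ISRE cores 104 and 85 bases before its start.
Ifit1: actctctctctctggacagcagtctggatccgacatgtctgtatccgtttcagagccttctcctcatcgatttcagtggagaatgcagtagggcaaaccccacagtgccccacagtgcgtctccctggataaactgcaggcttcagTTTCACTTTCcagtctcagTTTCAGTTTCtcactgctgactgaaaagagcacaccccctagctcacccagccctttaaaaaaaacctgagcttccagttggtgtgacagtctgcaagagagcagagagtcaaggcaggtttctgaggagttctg
Isg15, chr4:156200769-156201068 on the minus strand, has 3 overlapping ISRE cores, 78, 72 and 66 bases before its start.
Isg15: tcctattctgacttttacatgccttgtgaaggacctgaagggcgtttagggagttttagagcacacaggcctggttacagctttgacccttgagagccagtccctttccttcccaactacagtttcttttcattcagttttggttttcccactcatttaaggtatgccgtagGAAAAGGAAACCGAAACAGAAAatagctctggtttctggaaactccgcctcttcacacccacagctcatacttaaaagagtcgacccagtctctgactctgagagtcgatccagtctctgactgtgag
Oas1a, chr5:120907476-120907775 on the minus strand, has 2 overlapping ISRE cores, 20 and 14 bases before its start, and a GAS core 98 bases before it.
Oas1a: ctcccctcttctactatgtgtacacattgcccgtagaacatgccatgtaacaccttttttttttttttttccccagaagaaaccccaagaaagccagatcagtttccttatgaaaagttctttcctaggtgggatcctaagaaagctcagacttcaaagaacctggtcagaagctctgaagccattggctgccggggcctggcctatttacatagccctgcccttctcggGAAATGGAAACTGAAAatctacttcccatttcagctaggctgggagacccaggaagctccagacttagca
Irf8, chr8:120736108-120736407 on the plus strand, the first of its 2 windows, has GAS cores 171 and 153 bases before its start and no ISRE core.
Irf8: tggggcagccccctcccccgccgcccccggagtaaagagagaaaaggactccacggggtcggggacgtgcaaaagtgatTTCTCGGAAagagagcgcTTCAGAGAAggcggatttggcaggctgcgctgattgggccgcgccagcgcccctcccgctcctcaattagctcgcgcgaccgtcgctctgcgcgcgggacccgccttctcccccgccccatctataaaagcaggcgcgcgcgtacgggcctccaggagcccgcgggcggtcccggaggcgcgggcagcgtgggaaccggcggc
Ubd, chr17:37193642-37193941 on the plus strand, has neither.
Ubd: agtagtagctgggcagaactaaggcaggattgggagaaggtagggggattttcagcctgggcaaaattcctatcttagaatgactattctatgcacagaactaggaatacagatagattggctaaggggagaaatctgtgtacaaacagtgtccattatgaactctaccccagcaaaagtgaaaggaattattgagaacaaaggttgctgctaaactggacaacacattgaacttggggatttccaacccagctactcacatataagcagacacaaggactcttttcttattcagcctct

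The libraries held 7.11 M to 23.9 M counts each. In both libraries of mouse 54135 the title names 1 sort and the cell type label the other. They were grouped by title, and Pecam1, the gene of CD31, stood at 4.01 CPM (counts scaled to the library's TMM-adjusted size) in the library titled PDGFRb and 1360.5 in the one titled CD31, with Pdgfrb at 855.0 and 0.227. Among the PDGFRb lung BrM libraries, Pdgfrb was at 465 CPM in mouse 51435 and at 35.9 to 42.1 in the other 3, against 302 to 1385 in breast BrM and 855.0 to 1469 in non-tumor brain. These 3 libraries go against their label of mural cells, so the counts and named genes of lung BrM in this sort are also given with mouse 51435 as its only library. In that fit far fewer of all genes tested passed too, so a call lost there does not show that a difference was absent. The shallowest library, PDGFRb breast BrM of mouse 51950, had 7.11 M counts, 9189 genes detected and 13 of the 43 genes at 0. The CD31 lung BrM library 56195-56520 had 12612 genes detected and 6 of the 43 at 0, against 15102 to 22781 genes in the other 26 libraries.

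Markers of other cells differed between the groups. The summed level of 10 epithelial markers in the PDGFRb sort was 6196 to 10075 CPM in lung BrM (Esrp1 at 0), 963 to 3832 in breast BrM and 5.24 to 66.5 in non-tumor brain. The CD31 sums were 96.9 to 2265 in lung BrM, 132 to 2837 in breast BrM and 0.116 to 8.64 in non-tumor libraries. The sum of 10 pericyte and smooth muscle markers in the PDGFRb sort was 9522 CPM in lung BrM mouse 51435 and 327 to 531 in the other 3, 6768 to 23513 in breast BrM and 15313 to 38517 in non-tumor libraries. The sum of 10 endothelial markers in the CD31 sort was 7778 to 11779 in lung BrM, 5599 to 11789 in breast BrM and 14391 to 15846 in non-tumor libraries. Of 14 leukocyte and myeloid markers the PDGFRb sums were 53.7 to 665 in lung BrM, 138 to 1411 in breast BrM and 14.4 to 102 in non-tumor libraries, and the CD31 sums were 31.5 to 709 in lung BrM, 10.5 to 140.0 in breast BrM and 18.7 to 35.9 in non-tumor libraries (Aif1 at 0). Of 7 astrocyte markers the PDGFRb sums were 120 to 318 CPM in lung BrM and 327 to 785 in breast BrM. They were 251 to 3486 in non-tumor libraries. The sums of 8 neuron markers were 3.69 to 25.9, 0.498 to 40.3 and 3.29 to 951 in the same states. In the CD31 sort the astrocyte sums were 283 to 591, 382 to 668 and 108 to 188. The neuron sums there were 3.15 to 17.7, 1.88 to 7.38 and 2.24 to 3.44. The part of these cells in the results was not tested.

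**Figure D1:**
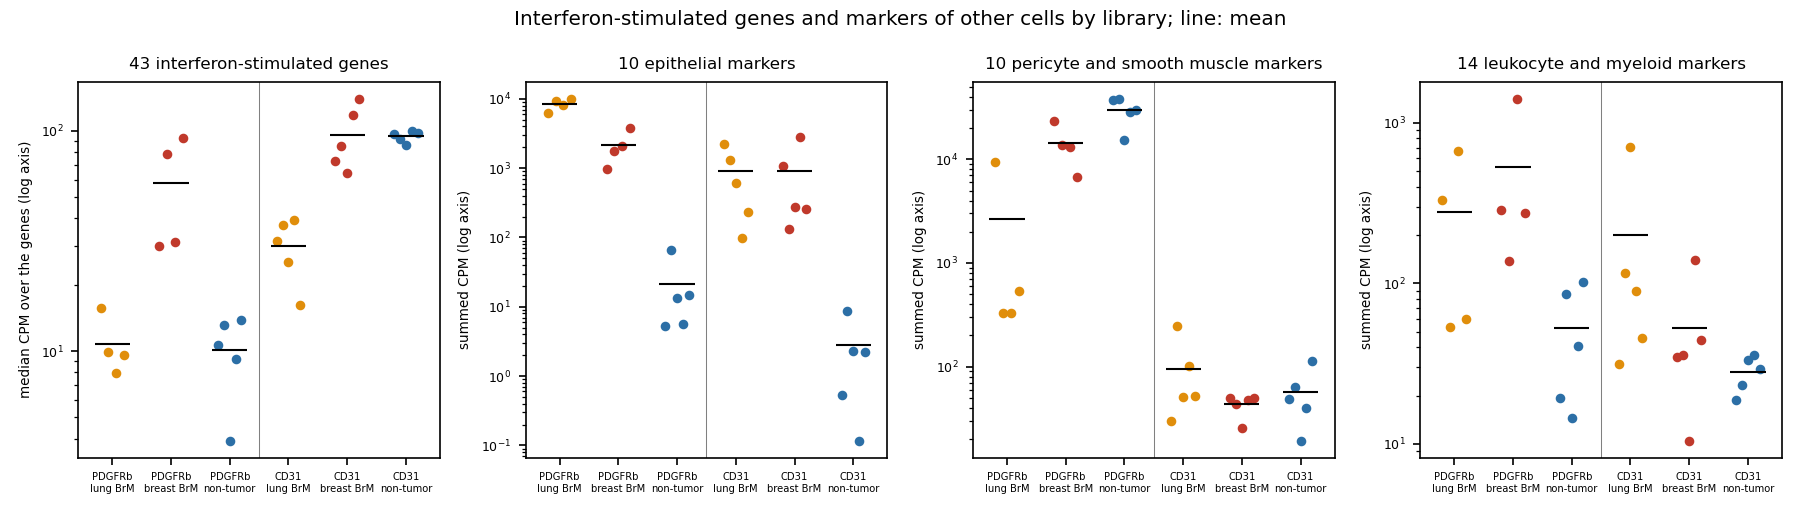
The median CPM of the 43 genes and the summed CPM of 3 marker lists in each library, on log axes, with 1 point a library and a line at the mean of its group. The medians of the 43 genes were 7.94 to 15.7 CPM in PDGFRb lung BrM, 29.9 to 92.9 in PDGFRb breast BrM and 3.92 to 13.9 in PDGFRb non-tumor libraries, and 16.2 to 39.6, 64.2 to 140 and 86.3 to 100 in the same states of the CD31 sort; epithelial markers were high in every BrM group.

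Per length, in the authors' deposited FPKM values, the genes spanned a wide range. Ifitm3, a membrane protein that stops viruses at the endosome, had the highest mean of the genes in 5 of the 6 groups. Its FPKM was 1173 ± 1697 in lung BrM, 8154 ± 1674 in breast BrM (n = 4 each) and 2052 ± 977 in non-tumor libraries (n = 5) of the PDGFRb sort (SD). In the CD31 sort it was 4527 ± 796, 7034 ± 1004 and 4338 ± 1073 in the same states (SD, n = 5 each). Its neighbour Ifitm2 came next in those 5 groups and first in PDGFRb lung BrM, at 1258 ± 286 FPKM (SD, n = 4), where it did not differ from Ifitm3 beyond their spread. Oas3, an RNA-activated synthetase, was the lowest in both BrM groups and the non-tumor group of the CD31 sort, and Ubd, a ubiquitin-like modifier, was listed at 0 in every PDGFRb non-tumor library. Mx1 and Mx2 are not in the FPKM tables. Close copies within the IFIT, OAS, IFITM, MX and TRIM30 families may share reads, so the split between such members is uncertain, and since the kit keeps no strand, reads of a gene and of an antisense partner cannot be told apart.

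**Figure D2:**
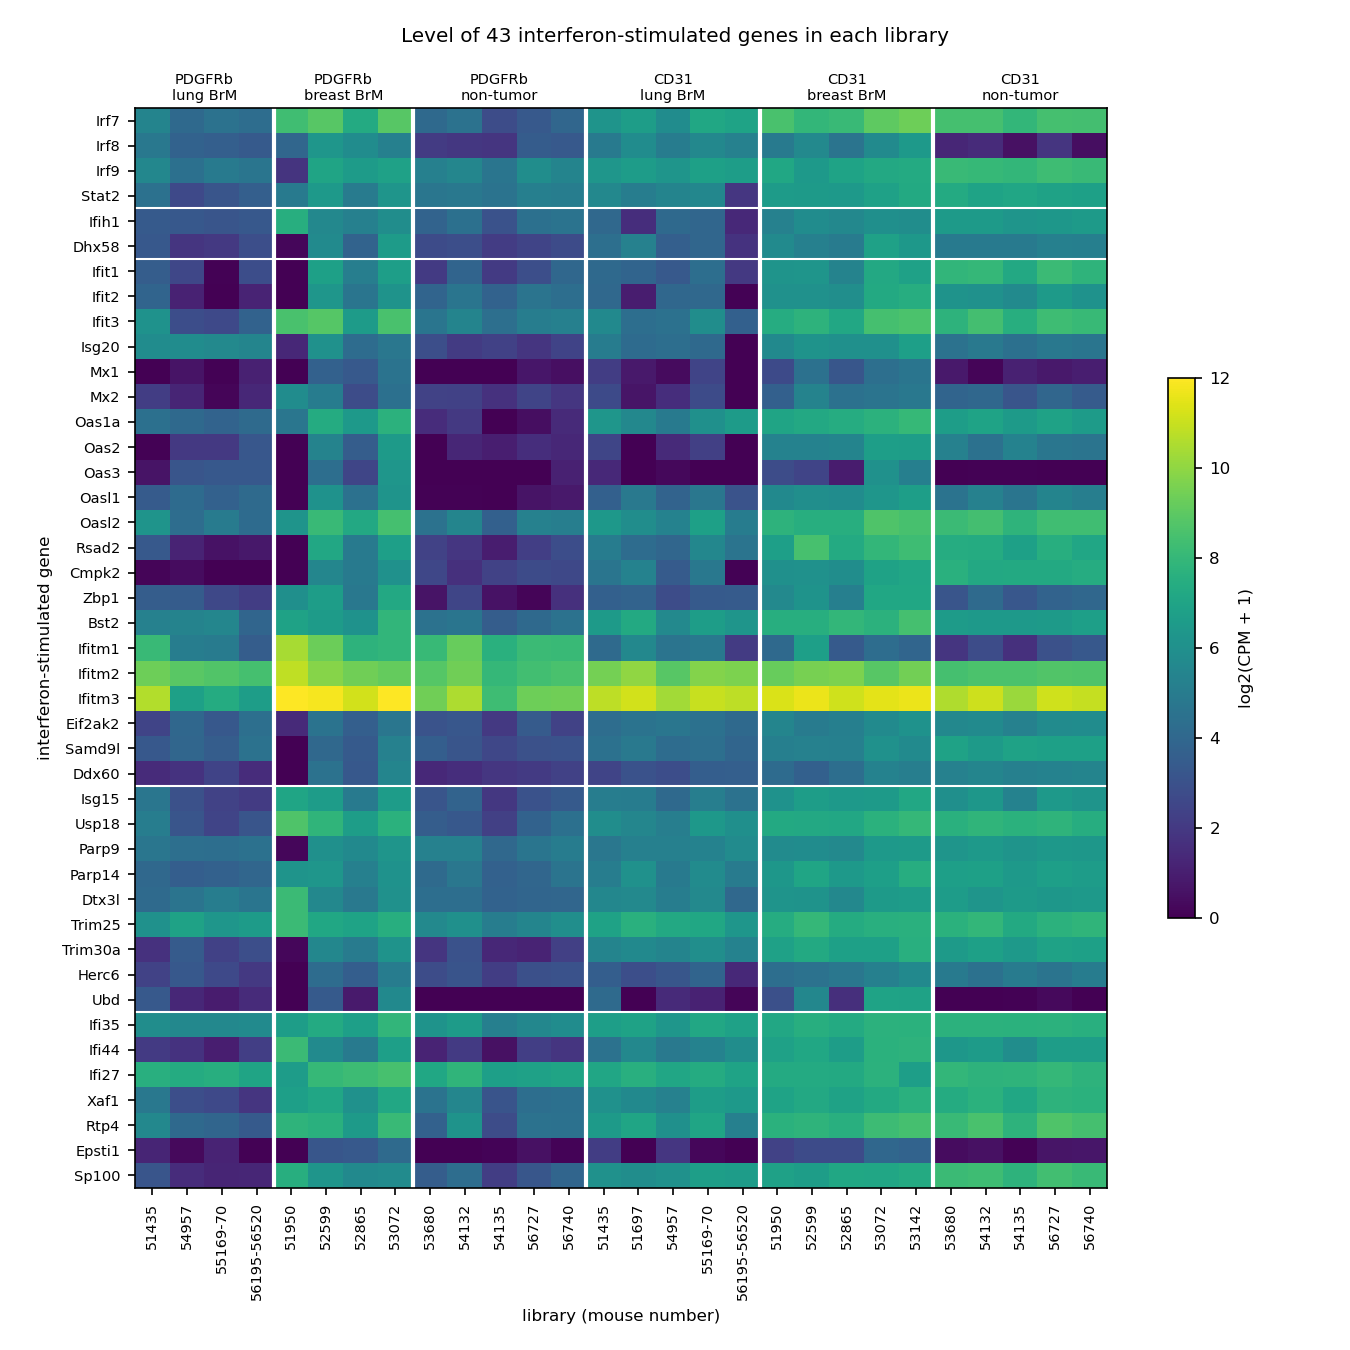
Level of each of the 43 genes (rows, grouped by role with white lines) in each of the 28 libraries (columns, by group and mouse number), as log2(CPM + 1) from 0 (dark) to 12 (yellow). Most rows are brighter in PDGFRb breast BrM than in the other PDGFRb groups and darker in CD31 lung BrM than in the other CD31 groups; Irf8 and Ubd are dark in CD31 non-tumor libraries.

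In the PDGFRb sort the question was how the genes differed in metastasis of each origin. Most of them were higher in breast BrM than in non-tumor brain, while few differed in lung BrM, and none was higher in lung than in breast BrM. In breast BrM against non-tumor libraries, 25 of 43 genes rose (58.1%, where 6.3% of 17028 genes tested rose) and 0 fell (where 2.69% fell), at an adjusted p under 0.05 in edgeR. At an unadjusted p under 0.05, 0 fell, and DESeq2 and limma-voom also called 0 lower. The 25 log2 differences ran from 1.29 to 11.14 (median 3.08), and the median of all 43 was 2.94, against -0.16 over all genes. In bulk RNA, fewer cells of a type and less RNA per cell cannot be told apart. In 20 genes every breast BrM library lay above every non-tumor library (6.37% of all genes), and in 0 genes did every one lie under them (11.5% of all genes). Without the shallow breast library of mouse 51950 the count was 38, and without non-tumor mouse 53680 it was 16. Epithelial markers were higher in the breast BrM libraries too, in the ranges given above. The calls went the same way within each of the 2 dates in the table headers that hold both groups. Those libraries also made the calls, so this is not a separate test. With date as a covariate 5 of the 43 genes rose, where 89 of all 17028 did. These 5 held 4 of the 25 (Irf7, Usp18, Ifi44 and Rtp4).

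In lung BrM against non-tumor libraries of this sort, 4 genes rose (9.30%, where 9.91% of all genes rose) and 1 fell (2.33%, where 7.58% fell), both near or under the share over all genes. The median of the 43 was 0.25, against -0.03 over all genes. Every lung library lay above the non-tumor libraries in 5 genes (18.9% of all genes) and under them in 2 (17.2%). With mouse 51435 as the only lung library, assumed to vary like the other groups, 0 genes rose and 0 fell. The count of falls was 7 without mouse 51435, whose library held the most mural markers, and 0 without 55169-70 or 56195-56520. In lung against breast BrM, 0 genes were higher (3.08% of all genes were; 0 at an unadjusted p under 0.05, 0 by DESeq2 and 0 by limma-voom) and 18 were lower (41.9%, where 2.39% were). The median difference was -2.85, against 0.07 over all genes. Every lung library lay under every breast library in 18 genes (4.34% of all genes) and above in 0 (12.5%). This count of 18 was 0 with mouse 51435 as the only lung library, 7 without any 1 of the other 3 lung libraries, 31 without breast mouse 51950, 9 without breast mouse 52599 and 10 without breast mouse 53072. With date as a covariate 0 rose and 1 fell in lung BrM against non-tumor libraries, where 273 of all 17028 genes rose and 305 fell. In that setting 3 were lower in lung than in breast BrM, where 90 of all genes were. No date in the headers holds both origins, so date and origin cannot be told apart.

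Among the transcription factors, 2 of 4 rose in breast BrM and 0 of 4 changed in lung BrM. Libraries are listed in the order of their mouse numbers. Irf7, the factor that amplifies interferon production, stood at 41.3, 16, 21.7 and 18.3 CPM in lung BrM libraries, 314, 469, 158 and 468 in those of breast BrM and 16, 21.7, 5.81, 9.18 and 14.5 in those of non-tumor brain. Every breast library was above all others, and the lung and non-tumor ranges overlapped. The log2 difference was 0.89 ± 0.42, adjusted p = 0.176, in lung BrM, 4.75 ± 0.47, adjusted p = 9.22e-05, in breast BrM and -3.86 ± 0.50, adjusted p = 0.000775, between lung and breast BrM. With mouse 51435 alone the first was 1.59 (adjusted p = 0.391) and the last -3.10 (adjusted p = 0.467). Irf8, a factor of immune cells that is also induced by interferon-gamma, was at 27.2, 12.5, 11.3 and 9.65 CPM in lung BrM libraries, 14.6, 77.1, 55.4 and 36.6 in those of breast BrM and 3.28, 2.88, 2.66, 10.1 and 9.14 in those of non-tumor brain. It rose in breast BrM (3.08 ± 0.66, adjusted p = 0.0119), with no overlap, and did not pass in lung BrM (1.46 ± 0.64, adjusted p = 0.136; 2.23 with mouse 51435 alone). Irf9, the DNA-binding part of ISGF3, was at 45.8, 20.8, 29.7 and 24 CPM in lung BrM libraries, 2.49, 126, 94.7 and 117 in those of breast BrM and 36.9, 44.7, 24.2, 58.1 and 41.9 in those of non-tumor brain. Its 3 deeper breast libraries lay above all others and that of mouse 51950 under them, and no comparison passed (breast BrM 1.09 ± 0.69, adjusted p = 0.364). Stat2, its partner, was at 21, 5.34, 7.94 and 11.5 CPM in lung BrM libraries, 29.9, 85.6, 31.3 and 76.2 in those of breast BrM and 24.8, 26.9, 22.5, 34.8 and 33.1 in those of non-tumor brain. It was lower in lung than in breast BrM (-2.30 ± 0.56, adjusted p = 0.0294), a call lost without any 1 of 5 libraries (adjusted p up to 0.113), and -1.42 with mouse 51435 alone. Of the 2 RNA sensors, Ifih1 rose in breast BrM, a call lost without non-tumor mouse 53680 (adjusted p = 0.0559), and Dhx58 did not pass.

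Of the 21 antiviral effectors, 10 rose in breast BrM, and 3 rose and 1 fell in lung BrM. The OAS proteins make the second messenger that activates RNase L, and Oasl1 is a relative that binds Irf7 mRNA in mouse. Oasl1 stood at 9.98, 17.3, 12.3 and 16.9 CPM in lung BrM libraries, 0, 67.3, 21.3 and 73.9 in those of breast BrM and 0.0631, 0.0514, 0, 0.53 and 0.794 in those of non-tumor brain. All lung libraries and 3 of the 4 breast libraries were above the non-tumor ones. It rose in lung BrM (5.61 ± 1.41, adjusted p = 0.0147) and in breast BrM (7.13, adjusted p = 0.0104). Oas1a was at 20.4, 16, 13.1 and 16.7 CPM in lung BrM libraries, 25.5, 163, 85.7 and 206 in those of breast BrM and 1.83, 3.03, 0, 0.353 and 1.67 in those of non-tumor brain, without overlap between either BrM group and the non-tumor libraries. It rose by 3.63 ± 0.93, adjusted p = 0.0163, in lung BrM and 6.49 ± 1.05, adjusted p = 0.0023, in breast BrM. Oas3 was at 0.563, 8.05, 8.76 and 8.78 CPM in lung BrM libraries, 0, 19.5, 4.66 and 78.7 in those of breast BrM and 0, 0, 0, 0 and 1.15 in those of non-tumor brain. It rose in breast BrM (6.77 ± 1.94, adjusted p = 0.0437), where mouse 51950 was at 0 and the call was lost without any 1 of 7 of the 9 libraries (adjusted p up to 0.132), the difference being 11.84 without non-tumor mouse 56740.

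Isg20, an RNA exonuclease, rose in both states, at 55.8, 55.4, 49.2 and 42.5 CPM in lung BrM libraries, 1.49, 66.5, 17.6 and 25.8 in those of breast BrM and 6.38, 3.29, 3.92, 2.65 and 4.37 in those of non-tumor brain. Its log2 difference was 3.67 ± 0.77, adjusted p = 0.0056, in lung BrM, where no library overlapped the non-tumor ones, and 2.81 ± 0.74, adjusted p = 0.0316, in breast BrM. The call in breast BrM was lost without any 1 of 7 of the 9 libraries (adjusted p up to 0.127) and by limma-voom, with a difference of 1.86 without breast mouse 52599. Cmpk2, a mitochondrial nucleotide kinase, went the other way in lung BrM, at 0.102, 0.301, 0 and 0 CPM in lung BrM libraries, 0, 44.1, 30 and 65.3 in those of breast BrM and 4.92, 2.16, 4.1, 5.78 and 5.12 in those of non-tumor brain. The lung libraries lay under all non-tumor libraries. It fell in lung BrM (-5.40 ± 1.48, adjusted p = 0.0224), a call lost without 55169-70 (adjusted p = 0.067) or 56195-56520 (adjusted p = 0.0645). Against breast BrM the difference was -8.43 ± 1.68, adjusted p = 0.0117, with an overlap at the breast library of mouse 51950. Mx2, of the dynamin-like GTPases, is annotated as a polymorphic pseudogene in the gene reference. Its transcript was at 3.53, 1.35, 0.11 and 1.52 CPM in lung BrM libraries, 55.7, 32.4, 5.88 and 20.4 in those of breast BrM and 4.17, 4.06, 2.3, 4.46 and 2.7 in those of non-tumor brain. It rose in breast BrM (3.04 ± 0.83, adjusted p = 0.0354) and was lower in lung than in breast BrM (-4.13 ± 0.95, adjusted p = 0.023), the first call being lost without any 1 of 7 of the 9 libraries (adjusted p up to 0.0956), by limma-voom and with no filter, and the second without any 1 of 4 of the 8 libraries (adjusted p up to 0.0855). With mouse 51435 as the only lung library, none of these calls on lung BrM passed: against non-tumor brain Oasl1 was at 5.02 (adjusted p = 0.354), Oas1a at 3.86, Isg20 at 3.73 and Cmpk2 at -5.38, and against breast BrM Cmpk2 was at -8.34 and Mx2 at -3.00.

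Of the 9 genes of the ISG15 and ubiquitin systems, 6 rose in breast BrM and 1, Ubd, in lung BrM. Isg15, the ubiquitin-like protein whose promoter is printed above, was at 24.8, 6.92, 4.08 and 3.28 CPM in lung BrM libraries, 131, 96.7, 30.1 and 97.5 in those of breast BrM and 8.02, 13.2, 2.84, 7.15 and 9.65 in those of non-tumor brain. All breast libraries were above all others, and mouse 51435 was the highest in lung BrM. The difference was 0.27 ± 0.65, adjusted p = 0.843, in lung BrM, 3.47 ± 0.69, adjusted p = 0.00789, in breast BrM and -3.20 ± 0.75, adjusted p = 0.0252, between lung and breast BrM, the last being lost without any 1 of 5 libraries (adjusted p up to 0.0929) and -1.84 with mouse 51435 alone, where the first was 1.57. Usp18, which removes ISG15 from proteins and damps the receptor, was at 33.3, 7.82, 4.46 and 8.07 CPM in lung BrM libraries, 408, 228, 100.4 and 203 in those of breast BrM and 10.7, 8.99, 3.83, 12.5 and 20.6 in those of non-tumor brain. It rose in breast BrM (4.40 ± 0.65, adjusted p = 0.00129), again without overlap, and was lower in lung BrM than there (-4.14 ± 0.71, adjusted p = 0.00449; -2.81 with mouse 51435 alone). Ubd had 0 counts in all 5 non-tumor libraries. It reached 9.11, 1.5, 0.882 and 1.76 CPM in lung BrM and 0, 9.57, 0.84 and 50.7 in breast BrM, at least 126-fold and at least 510-fold above the 3 counts set as the limit over the group, from 244 and 911 counts (adjusted p = 0.0188 and 0.0157). Without mouse 51435 the bound in lung BrM was 47.8-fold, and without mouse 53072 that in breast BrM was 144-fold. With mouse 51435 alone the adjusted p in lung BrM was 0.146.

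Of the 7 other genes, 6 rose in breast BrM and 0 changed in lung BrM. Ifi44, an antiviral protein of the cytoplasm, was at 3.17, 2.41, 0.992 and 3.74 CPM in lung BrM libraries, 284, 52.7, 29.4 and 109.6 in those of breast BrM and 1.33, 3.08, 0.45, 3.66 and 2.58 in those of non-tumor brain. The breast libraries were above all others, and the lung libraries overlapped the non-tumor ones. It rose by 5.75 ± 0.82, adjusted p = 0.00108, in breast BrM and was lower in lung than in breast BrM (-5.50 ± 0.89, adjusted p = 0.0034; -5.20 with mouse 51435 alone). Sp100, a protein of nuclear bodies, was at 7.83, 1.88, 1.38 and 1.46 CPM in lung BrM libraries, 185, 74.5, 50.9 and 55.2 in those of breast BrM and 10.6, 18.4, 3.51, 8.25 and 13.9 in those of non-tumor brain. It showed the same pattern, with 3.08 ± 0.68, adjusted p = 0.0137, in breast BrM and -4.87 ± 0.81, adjusted p = 0.00394, between lung and breast BrM (-3.53 with mouse 51435 alone). Epsti1, named for its induction by stroma in epithelial cells, was at 1.38, 0.226, 1.32 and 0.0585 CPM in lung BrM libraries, 0, 8.13, 9.33 and 17 in those of breast BrM and 0, 0, 0.09, 0.441 and 0.0794 in those of non-tumor brain. It rose in breast BrM (6.08 ± 1.58, adjusted p = 0.0296), where mouse 51950 was at 0, and the call was lost without any 1 of 7 of the 9 libraries (adjusted p up to 0.0785).

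**Figure D3:**
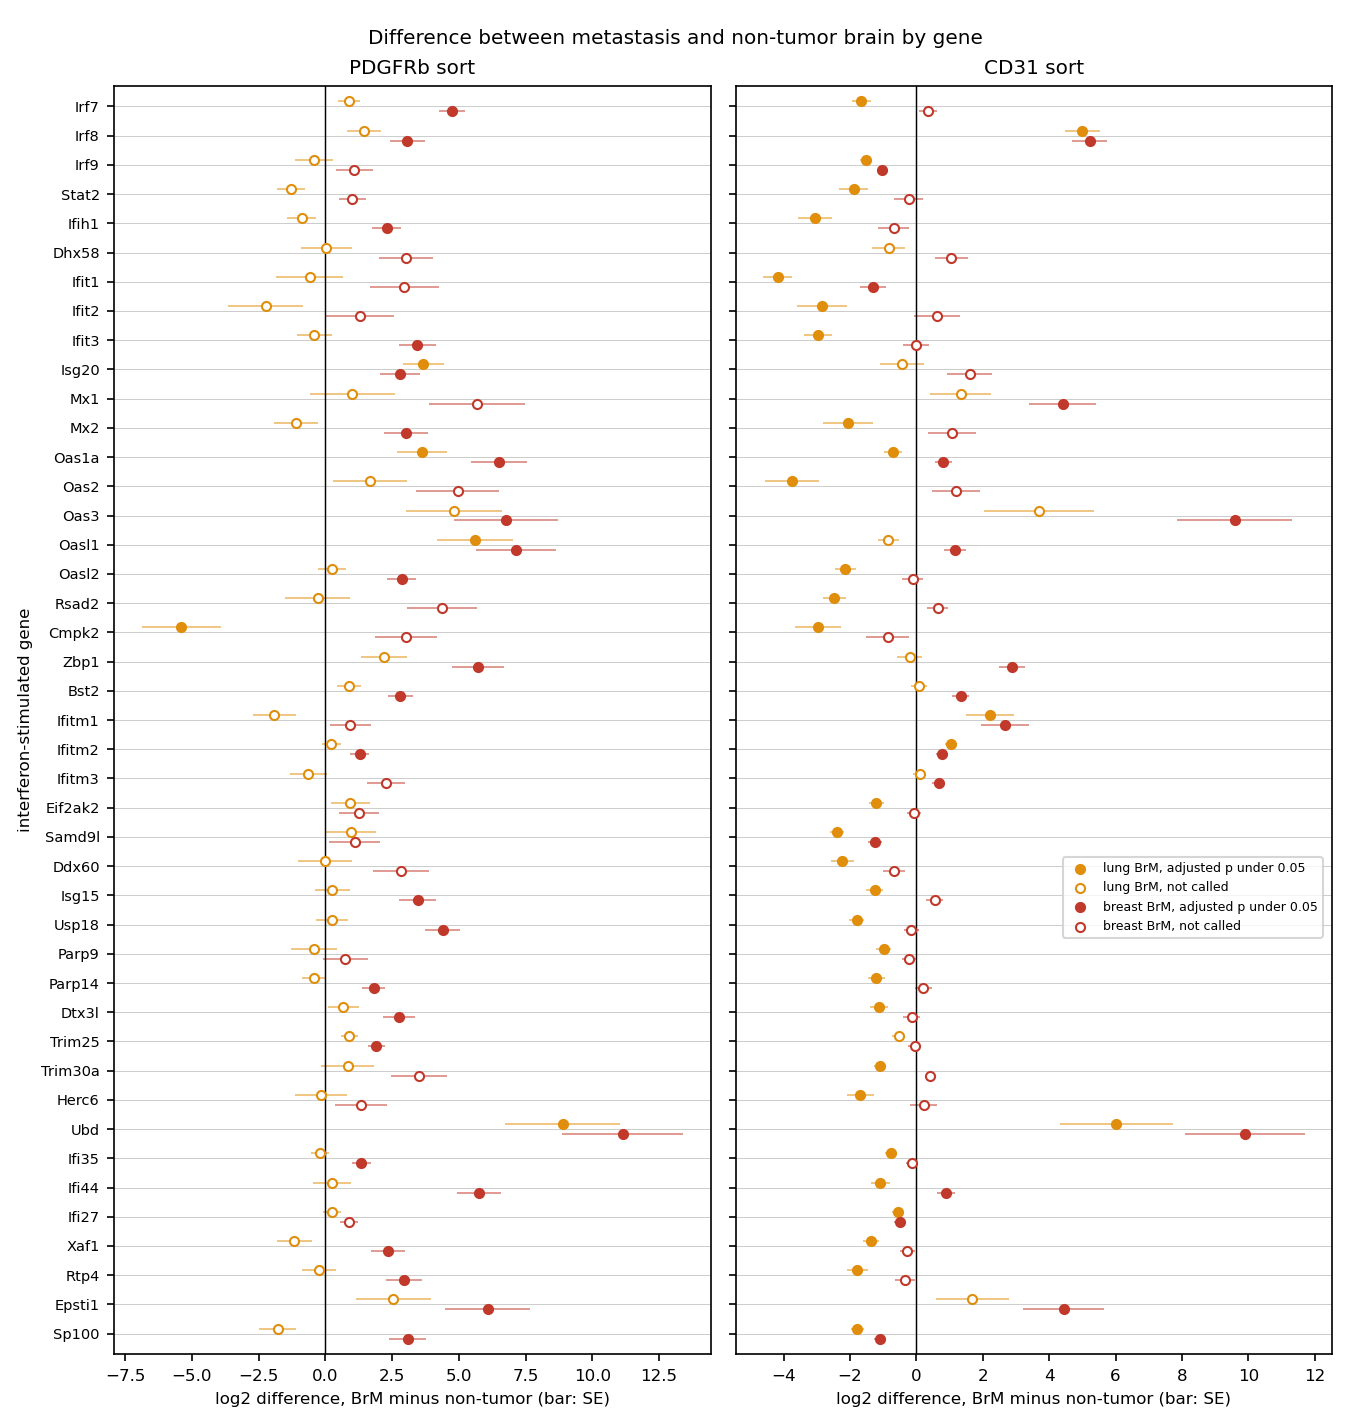
Log2 difference between BrM and non-tumor libraries for each of the 43 genes in the PDGFRb sort (left) and the CD31 sort (right), lung BrM in orange above breast BrM in red; bars are standard errors and filled points have an adjusted p under 0.05. In the PDGFRb sort 25 breast points are filled on the right of 0 and 4 lung points; in the CD31 sort 29 lung points are filled on the left of 0.

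In endothelial cells the 2 origins of metastasis went apart. Most of the genes were lower in lung BrM than in non-tumor brain, whereas breast BrM showed more rises than falls, as it did over all genes. In lung BrM 4 genes rose (9.30%, where 20.4% of 14876 genes tested rose) and 29 fell (67.4%, where 14.5% fell). The falls ran from -4.18 to -0.56 (median -1.78), and the median of all 43 was -1.20, against -0.00 over all genes. Every lung library lay under every non-tumor library in 27 genes (17.8% of all genes) and above in 2 (12.8%). Without library 56195-56520, which held the fewest genes, 4 rose and 29 fell. Summed endothelial markers were lower in these libraries and epithelial markers higher than in non-tumor ones, in the ranges given above. In the 1 date of the headers with both groups, all 33 called genes kept their direction. Those libraries also made the calls, so this is not a separate test. With date as a covariate 19 of the 43 fell and 1 rose, where 486 of all 14876 genes fell and 972 rose.

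In breast BrM 13 genes rose (30.2%, where 18.6% of all genes rose) and 5 fell (11.6%, where 11.4% fell), the falls near the share over all genes. The median was 0.36, against 0.04 over all genes. Every breast library lay above the non-tumor libraries in 14 genes (18.0% of all genes) and under them in 7 (19.7%). With date as a covariate 8 rose and 3 fell, where 1353 of all 14876 genes rose and 938 fell. In both dates that hold the 2 groups all 18 called genes kept their direction, in libraries that also made the calls. The lung and breast comparisons share their non-tumor libraries. Irf8, Ifitm1, Ifitm2 and Ubd were called higher in both, Ifit1, Irf9, Ifi27, Samd9l and Sp100 lower in both, and Oas1a and Ifi44 higher in breast and lower in lung BrM. These last calls were near the threshold: that of Ifi44 in breast BrM was lost without any 1 of 4 of the 10 libraries (adjusted p up to 0.0653), and those of Oas1a are given with its values. In lung against breast BrM, 0 genes were higher (0.578% of all genes were; 0 at an unadjusted p under 0.05, 0 by DESeq2 and 0 by limma-voom) and 26 were lower (60.5%, where 1.55% were). The median was -1.67, against -0.03 over all genes. Every lung library lay under every breast library in 29 genes (3.29% of all genes) and above in 0 (0.887%). The count of 26 ranged from 18 to 33 as each library was left out, was 0 with date as a covariate (median still -2.41), and, as in the PDGFRb sort, date and origin cannot be told apart.

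Of the 4 transcription factors, 1 rose and 3 fell in lung BrM, and 1 rose and 1 fell in breast BrM. Irf7 was at 72.7, 101, 56.8, 143 and 124 CPM in lung BrM libraries, 372, 245, 276, 512 and 644 in those of breast BrM and 347, 356, 242, 355 and 338 in those of non-tumor brain. Every lung library lay under the libraries of both other groups, which overlapped. The difference was -1.65 ± 0.28, adjusted p = 0.000297, in lung BrM, 0.36 ± 0.28, adjusted p = 0.368, in breast BrM and -2.01 ± 0.29, adjusted p = 0.00128, between lung and breast BrM. Irf9 was at 76.8, 98.1, 75.4, 114 and 101 CPM in lung BrM libraries, 141, 85.2, 125, 149 and 162 in those of breast BrM and 281, 266, 245, 309 and 281 in those of non-tumor brain. Both BrM groups lay under the non-tumor libraries, with a log2 difference of -1.51 ± 0.17, adjusted p = 7.12e-06, in lung BrM and -1.03 ± 0.17, adjusted p = 0.000273, in breast BrM. Stat2 was at 47.9, 33.3, 41.1, 45.3 and 2.73 CPM in lung BrM libraries, 93.8, 92.1, 87.5, 117 and 158 in those of breast BrM and 160.1, 125, 136, 121 and 114 in those of non-tumor brain, with 56195-56520 far under the other lung libraries. Lung BrM fell (-1.89 ± 0.45, adjusted p = 0.00382), and the test did not pass in breast BrM (-0.23 ± 0.43, adjusted p = 0.742) nor between lung and breast BrM (-1.67 ± 0.45, adjusted p = 0.0673). Irf8 went the opposite way, at 28.5, 56.7, 32.4, 47 and 38 CPM in lung BrM libraries, 29.9, 49.3, 23.9, 52.6 and 86.4 in those of breast BrM and 1.45, 1.8, 0.454, 2.56 and 0.357 in those of non-tumor brain. Every BrM library was above every non-tumor library, with a rise of 4.99 ± 0.52, adjusted p = 2.64e-06, in lung BrM and 5.21 ± 0.53, adjusted p = 1.93e-06, in breast BrM. Of the RNA sensors, Ifih1, which detects long double-stranded RNA, was at 15.6, 1.96, 16.1, 14.7 and 1.61 CPM in lung BrM libraries, 38.1, 55.5, 47.4, 62.1 and 58 in those of breast BrM and 91.1, 91.6, 75.5, 81.6 and 91 in those of non-tumor brain. Lung BrM was lower than non-tumor brain (-3.06 ± 0.50, adjusted p = 0.000209) and than breast BrM (-2.37 ± 0.49, adjusted p = 0.0159). Dhx58 did not pass in either state.

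**Figure D4:**
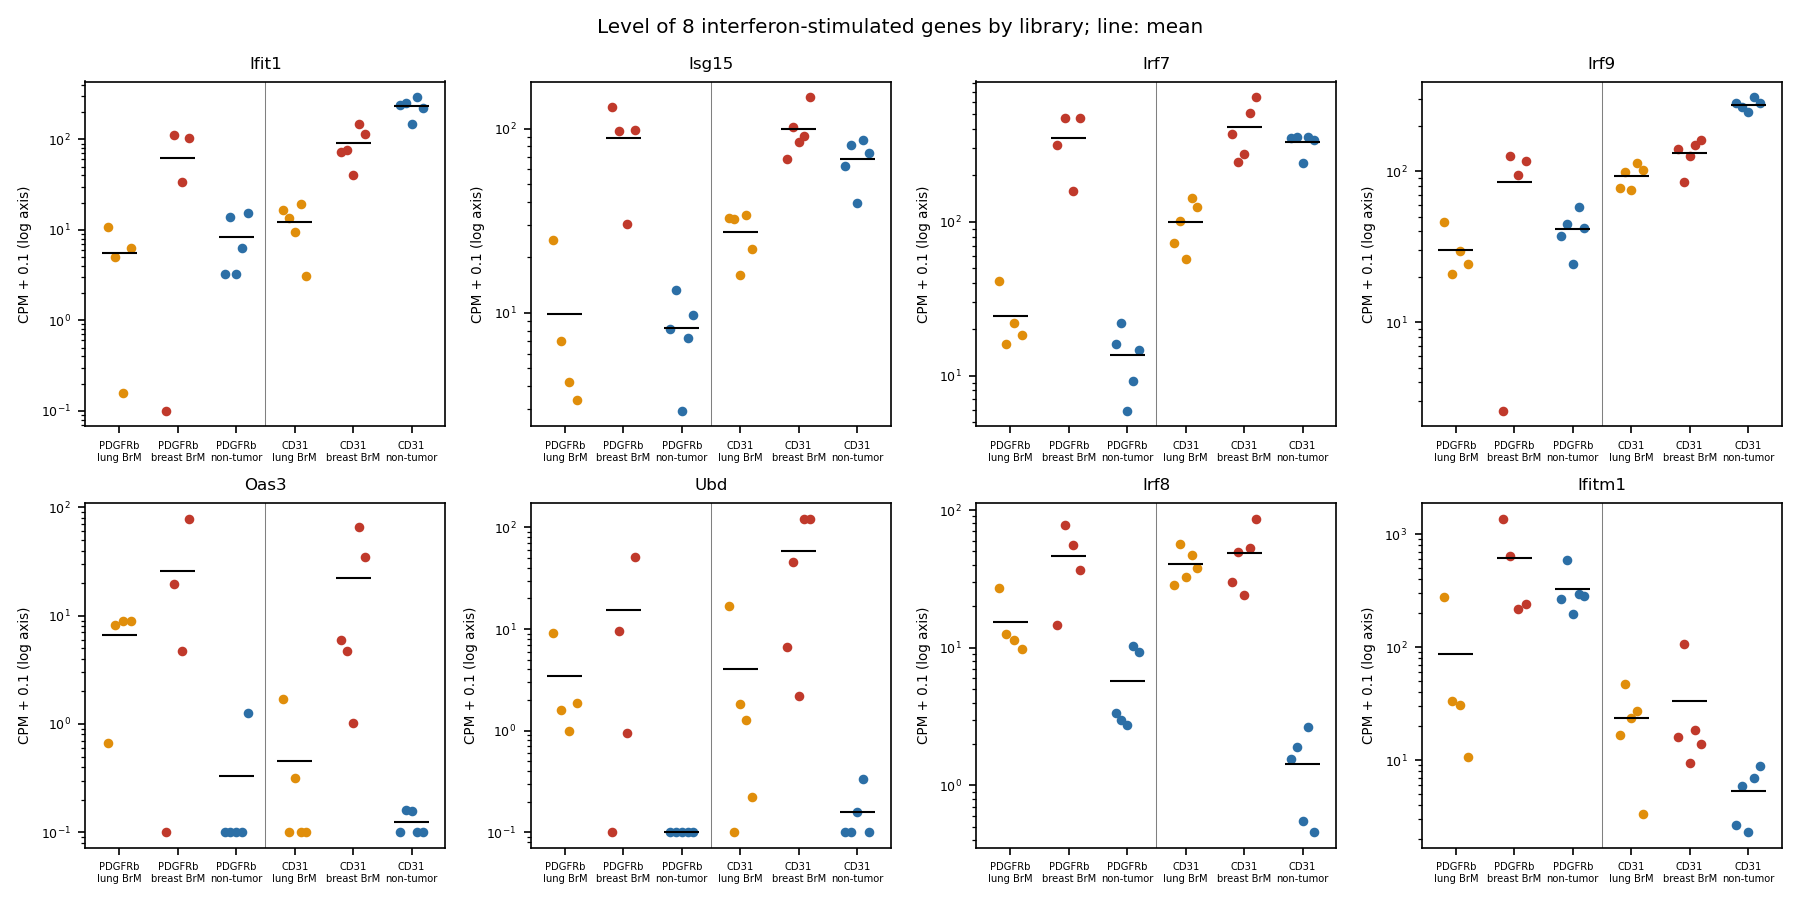
CPM of 8 genes in each library, on a log axis with 0.1 added, with 1 point a library and a line at the mean of its group. Isg15 and Irf7 are lower in every lung than in every breast BrM library of the same sort; CD31 Ifit1 lies lowest in lung BrM, between in breast BrM and highest in non-tumor libraries; Irf8 is higher in every CD31 BrM library (23.9 to 86.4 CPM) than in any CD31 non-tumor library (0.357 to 2.56 CPM).

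Of the 21 antiviral effectors, 2 rose and 12 fell in lung BrM, and 9 rose and 2 fell in breast BrM. The IFIT proteins bind viral RNA that lacks the marks of host mRNA. Ifit1 was at 16.3, 13.6, 9.29, 19.2 and 2.98 CPM in lung BrM libraries, 73.1, 76.5, 40.4, 149 and 114 in those of breast BrM and 239, 253, 149.9, 293 and 222 in those of non-tumor brain. The 3 groups did not overlap, though the highest breast library was just under the lowest non-tumor one. The difference was -4.18 ± 0.44, adjusted p = 2.74e-06, in lung BrM, -1.31 ± 0.39, adjusted p = 0.0175, in breast BrM and -2.87 ± 0.42, adjusted p = 0.00143, between lung and breast BrM. Ifit2 was at 15.5, 0.941, 14.9, 15.8 and 0.062 CPM in lung BrM libraries, 67.3, 66, 59.9, 156 and 175 in those of breast BrM and 71.1, 66.7, 51.8, 92.7 and 68.3 in those of non-tumor brain. Its lung libraries lay under all others, at -2.85 ± 0.75, adjusted p = 0.00759, against non-tumor and -3.46 ± 0.77, adjusted p = 0.0249, against breast BrM, the second call being lost without breast mouse 53072 or 53142 (adjusted p up to 0.0626). Ifit3 was at 50.1, 19.4, 21.4, 58.9 and 11.7 CPM in lung BrM libraries, 171, 214, 147, 352 and 390.1 in those of breast BrM and 219, 337, 180.4, 305 and 270.2 in those of non-tumor brain. The fall in lung BrM (-2.97 ± 0.41, adjusted p = 4.48e-05) came without overlap, and the difference in breast BrM was -0.01 ± 0.38, adjusted p = 0.99.

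The OAS genes did not move as 1 group. Oas2 was at 4.75, 0, 1.72, 3.9 and 0 CPM in lung BrM libraries, 39, 39.2, 41.3, 107 and 100 in those of breast BrM and 37.8, 20.9, 38.3, 25.1 and 23.6 in those of non-tumor brain. It fell in lung BrM (-3.74 ± 0.81, adjusted p = 0.00196) and was lower there than in breast BrM (-4.94 ± 0.85, adjusted p = 0.00466), with no overlap in either comparison. Oas1a was at 77, 47.8, 29.9, 63.5 and 94.3 CPM in lung BrM libraries, 127, 153, 169, 209 and 259 in those of breast BrM and 102, 122, 93, 120.02 and 96.5 in those of non-tumor brain. Oas1a fell in lung BrM (-0.70 ± 0.26, adjusted p = 0.0481), where 1 library overlapped, and rose in breast BrM (0.81 ± 0.26, adjusted p = 0.0268), where none did. The lung call was lost without any 1 of 9 of the 10 libraries (adjusted p up to 0.117), with RLE scaling and with the filter at 1 CPM, and the breast call without any 1 of 5 of the 10 libraries (adjusted p up to 0.0771). Oas3 had 2 counts in all over the non-tumor libraries, and stood at 1.58, 0, 0.214, 0 and 0 CPM in lung BrM libraries, 5.93, 4.58, 0.915, 65.6 and 34.7 in those of breast BrM and 0, 0.0621, 0.0567, 0 and 0 in those of non-tumor brain. The ratio of breast BrM to non-tumor libraries was 1016 (95% counting interval 281 to 8394, adjusted p = 0.00054) and that of lung BrM 16.8 (4.25 to 145, adjusted p = 0.093). The first ratio was 555 without breast mouse 53072, and the second 2.21 without lung mouse 51435. It was lower in lung than in breast BrM (-5.89 ± 1.39, adjusted p = 0.0343), with an overlap at breast mouse 52865, and the call was lost without any 1 of 4 libraries (adjusted p up to 0.118).

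Mx1 rose in breast BrM (4.41 ± 1.01, adjusted p = 0.0034), at 3.6, 0.784, 0.286, 4.58 and 0 CPM in lung BrM libraries, 5.55, 21.6, 8.12, 19.8 and 24.7 in those of breast BrM and 0.753, 0.124, 1.13, 0.757 and 1.02 in those of non-tumor brain. Mx2, whose product in mouse acts in the cytoplasm, is annotated as a polymorphic pseudogene in the gene reference. Its level was 5.55, 0.627, 2, 5.76 and 0 CPM in lung BrM libraries, 11.7, 40.7, 21.4, 23.8 and 27 in those of breast BrM and 13.4, 15, 7.88, 14.5 and 10 in those of non-tumor brain. Mx2 fell in lung BrM (-2.07 ± 0.75, adjusted p = 0.0422) and was lower there than in breast BrM (-3.13 ± 0.78, adjusted p = 0.0463), the first call being lost without any 1 of 7 of the 10 libraries (adjusted p up to 0.0803) and with no filter, and the second without any 1 of 7 of the 10 libraries (adjusted p up to 0.0901). Rsad2, the radical enzyme viperin, was at 31.5, 17.7, 14.7, 46.1 and 23.3 CPM in lung BrM libraries, 109.9, 364, 162, 243 and 304 in those of breast BrM and 174, 165, 113, 183 and 136 in those of non-tumor brain. All lung libraries were under all others (-2.47 ± 0.34, adjusted p = 3.75e-05, against non-tumor and -3.12 ± 0.35, adjusted p = 0.000181, against breast BrM). Its neighbour in the genome Cmpk2 was at 24.4, 39.4, 9.94, 27.2 and 0.062 CPM in lung BrM libraries, 64.2, 66.2, 58.5, 118 and 138 in those of breast BrM and 197, 151, 155, 155 and 169 in those of non-tumor brain. It fell in lung BrM (-2.98 ± 0.69, adjusted p = 0.00328), while breast BrM did not pass (-0.86 ± 0.64, adjusted p = 0.347) though its libraries lay under the non-tumor ones. Samd9l, which limits translation in infected cells, was at 21.1, 28.2, 17.9, 19.8 and 13.9 CPM in lung BrM libraries, 35.3, 37.1, 36.8, 65.9 and 51.9 in those of breast BrM and 118, 91.2, 119, 112 and 111 in those of non-tumor brain. The log2 difference was -2.39 ± 0.23, adjusted p = 8.81e-07, in lung BrM and -1.25 ± 0.22, adjusted p = 0.000364, in breast BrM, without overlap in either.

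Ifitm1 and Ifitm2, whose products block virus entry, rose in both states. Ifitm1 was at 16.5, 47, 23.5, 27.3 and 3.22 CPM in lung BrM libraries, 16, 108, 9.44, 18.4 and 13.9 in those of breast BrM and 2.58, 5.84, 2.21, 6.93 and 8.83 in those of non-tumor brain. It rose in lung BrM (2.21 ± 0.72, adjusted p = 0.0256), with an overlap at 56195-56520 and a call lost without lung mouse 51697 or non-tumor mouse 53680 or 54135 (adjusted p up to 0.074), and in breast BrM (2.67 ± 0.73, adjusted p = 0.0108). The breast call was lost without mouse 52599 (1.48, adjusted p = 0.0706), and both calls were lost by limma-voom and with date as a covariate. Ifitm2 was at 729, 1015, 476, 864 and 786 CPM in lung BrM libraries, 593, 754, 786, 472 and 685 in those of breast BrM and 351, 389, 385, 425 and 417 in those of non-tumor brain. It rose without overlap by 1.04 ± 0.19, adjusted p = 0.000453, in lung BrM and 0.77 ± 0.19, adjusted p = 0.00476, in breast BrM.

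Of the 9 genes of the ISG15 and ubiquitin systems, 1 rose and 7 fell in lung BrM, and 1 rose and 0 fell in breast BrM. Isg15 was at 32.6, 32.1, 16, 33.8 and 22 CPM in lung BrM libraries, 67.8, 102, 84.8, 91.3 and 148 in those of breast BrM and 62.5, 81, 39.4, 86 and 73.6 in those of non-tumor brain. The lung libraries lay under all others, at -1.26 ± 0.26, adjusted p = 0.00138, against non-tumor and -1.82 ± 0.26, adjusted p = 0.00143, against breast BrM, and breast BrM did not pass against non-tumor (0.56 ± 0.26, adjusted p = 0.115). Ubd was the gene that rose in both, at 16.8, 0, 1.72, 1.19 and 0.124 CPM in lung BrM libraries, 6.54, 45.6, 2.12, 122 and 119.9 in those of breast BrM and 0, 0, 0.0567, 0.233 and 0 in those of non-tumor brain. It rose by 6.03 ± 1.69, adjusted p = 0.0111, in lung BrM and 9.89 ± 1.81, adjusted p = 0.000575, in breast BrM. The lung rise rested on mouse 51435 and was 3.63 without it (adjusted p = 0.0722).

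Of the 7 other genes, 6 fell in lung BrM, and 2 rose and 2 fell in breast BrM. Sp100 was at 66.7, 57.7, 66.3, 106 and 99.5 CPM in lung BrM libraries, 114, 101, 139.9, 135 and 162 in those of breast BrM and 288, 304, 219, 334 and 281 in those of non-tumor brain. It fell in both without overlap (log2 difference -1.79 ± 0.19, adjusted p = 3.6e-06, in lung BrM and -1.10 ± 0.19, adjusted p = 0.000343, in breast BrM). Ifi27, a small membrane protein, was at 137, 189.5, 134, 167 and 122 CPM in lung BrM libraries, 161, 158, 156, 210.03 and 103 in those of breast BrM and 244, 217, 222, 252 and 215 in those of non-tumor brain. Its log2 difference was -0.56 ± 0.18, adjusted p = 0.0231, in lung BrM and -0.51 ± 0.18, adjusted p = 0.04, in breast BrM, the first call being lost without any 1 of 4 of the 10 libraries (adjusted p up to 0.0622) and without the libraries of 2 mouse numbers, and the second without any 1 of 9 of the 10 libraries (adjusted p up to 0.105). Epsti1 was at 3.6, 0, 2.72, 0.17 and 0 CPM in lung BrM libraries, 4.23, 5.7, 5.78, 15.2 and 13.2 in those of breast BrM and 0.323, 0.435, 0.0567, 0.582 and 0.664 in those of non-tumor brain, and rose in breast BrM (4.44 ± 1.22, adjusted p = 0.0107) with no overlap.

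The promoter matches were spread over these calls. Of genes with a window, the ISRE core was present in 1 of 4 that rose and 10 of 22 that fell in CD31 lung BrM, in 5 of 11 that rose and 1 of 4 that fell in CD31 breast BrM, and in 7 of 20 that rose in PDGFRb breast BrM. Irf8, Ubd and Ifitm1, without it, rose in both states of the CD31 sort, as did Ifitm2, which has it.

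Between the sorts, the PDGFRb libraries of non-tumor brain carried less of these transcripts than the CD31 libraries. They also held more of the astrocyte markers, in the ranges given above, and the part of this was not tested. In the fit of all 28 libraries, 2 genes were higher in the PDGFRb sort (4.65%, where 17.4% of 18548 genes were) and 31 were lower (72.1%, where 10.5% were). The median difference was -2.75, or -2.63 with Oas3 and Ubd, which have few counts, at their bound, against 0.10 over all genes. Every PDGFRb library lay under every CD31 library in 34 genes (18.1% of all genes) and above in 2 (18.3%). The 2 higher genes were Ifitm1 (5.95 ± 0.93, adjusted p = 1.62e-05) and Irf8 (2.08 ± 0.56, adjusted p = 0.00558). Ifitm1 stood at 267, 593, 198, 293 and 282 CPM in the PDGFRb sort and Irf8 at the values above, and neither overlapped the CD31 sort. Among the lower genes with the largest differences were Oasl1 (-6.72 ± 1.01, adjusted p = 9.42e-06), Oas1a (-6.28 ± 0.70, adjusted p = 1.13e-07), Rsad2 (-5.44 ± 0.95, adjusted p = 6.79e-05), Ifi44 (-5.28 ± 0.59, adjusted p = 9.68e-08) and Cmpk2 (-5.22 ± 0.98, adjusted p = 0.000169). Irf7 (-4.61 ± 0.40, adjusted p = 2.2e-09), Irf9 (-2.75 ± 0.49, adjusted p = 9.28e-05), Stat2 (-2.21 ± 0.47, adjusted p = 0.000709) and Isg15 (-3.07 ± 0.50, adjusted p = 2.96e-05) were lower as well. With the mouse as a block, 2 were higher and 30 lower, where 2416 and 1473 of all 18439 genes were. Within each of the 4 dates all 33 called genes kept their direction, in libraries that also made the calls.

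In breast BrM the sorts differed in few of the genes. Ifitm1 was higher in the PDGFRb sort (4.22 ± 0.87, adjusted p = 0.001) and Eif2ak2, the kinase PKR that stops translation, lower (-1.57 ± 0.53, adjusted p = 0.0403). These are 1 and 1 gene (9.0% and 7.51% of all genes were higher and lower), and the median of the 43 was -0.40, against -0.04 over all genes. Every PDGFRb library lay above the CD31 libraries in 1 gene (5.02% of all genes) and under them in 4 (11.4%). Eif2ak2 stood at 1.66, 23, 11.5 and 25.4 CPM in PDGFRb and 42.4, 31.2, 34.7, 52.9 and 68.2 in CD31 libraries, which did not overlap. Its call was lost without any 1 of 4 libraries (adjusted p up to 0.102) and with the mouse as a block (-1.79, adjusted p = 0.149). The counts were 2 higher and 4 lower without PDGFRb mouse 51950. The lower count was also 4 without PDGFRb mouse 53072, and it was 0 without PDGFRb mouse 52865 or CD31 mouse 53072 or 53142, where without CD31 mouse 53072 the higher count was 2. A p that misses the threshold does not show that the sorts were alike.

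In lung BrM 0 genes were higher in the PDGFRb sort (10.2% of all genes were; 2 at an unadjusted p under 0.05, 0 by DESeq2 and 2 by limma-voom) and 17 lower (39.5%, where 9.36% were). The median was -1.17, against 0.19 over all genes. Every PDGFRb library lay above the CD31 libraries in 1 gene (14.0% of all genes) and under them in 15 (8.91%). The largest falls were those of Cmpk2 (-7.68 ± 1.33, adjusted p = 0.000138), Sp100 (-4.65 ± 0.55, adjusted p = 6.88e-07), Ifi44 (-3.91 ± 0.61, adjusted p = 3.3e-05), Rsad2 (-3.19 ± 0.94, adjusted p = 0.017) and Trim30a (-3.05 ± 0.72, adjusted p = 0.00335), a TRIM protein that damps signalling in mouse. Trim30a stood at 2.25, 9.93, 4.02 and 6.49 CPM in PDGFRb and 42.2, 51, 42, 60.1 and 38.6 in CD31 libraries. Rsad2 was at 9.11, 1.28, 0.496 and 0.702 CPM in PDGFRb libraries, and its call was lost without 54957 or 55169-70 of that sort, the difference being -5.02 without mouse 51435. Irf7 (-2.03), Irf9 (-1.63), Stat2 (-1.57) and Isg15 (-1.48) were lower too, the last 3 each losing the call without 1 of 3 or more libraries (adjusted p up to 0.134; Isg15 was at -2.52 without mouse 51435 of the PDGFRb sort). With that mouse as the only PDGFRb lung library 1 gene was called lower, Sp100 (-3.45, adjusted p = 0.00959), and 1 higher. Irf7 and Stat2 were not called by limma-voom. With the mouse as a block 14 were lower, where 1192 of all 18439 genes were, and Irf9 and Stat2 no longer passed. The lower count was 11 without PDGFRb library 55169-70.

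The effect of metastasis itself was then compared between the sorts, as the log2 difference of the PDGFRb sort minus that of the CD31 sort. Larger and smaller refer to this signed value, which is also larger where a gene fell in the CD31 sort alone. For breast BrM 20 genes had a larger effect in the PDGFRb sort (46.5%, where 2.35% of all genes did) and 0 a smaller one (where 3.57% did; 1 at an unadjusted p under 0.05, 1 by DESeq2 and 0 by limma-voom). The median was 2.11, against -0.27 over all genes. The largest were Oasl1 (5.93 ± 1.21, adjusted p = 0.00293), Oas1a (5.67 ± 0.86, adjusted p = 0.000107), Ifi44 (4.89 ± 0.74, adjusted p = 0.000107), Usp18 (4.55 ± 0.64, adjusted p = 4.69e-05) and Irf7 (4.39 ± 0.52, adjusted p = 3.91e-06), and Isg15 was at 2.91 ± 0.68, adjusted p = 0.00901. With the mouse as a block, 10 were larger, where 120 of all 18439 genes were, and Oasl1 did not pass (5.95, adjusted p = 0.149).

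For lung BrM 11 genes had a larger signed value (25.6%, where 3.77% of all genes did) and 2 a smaller one (4.65%, where 6.35% did). The median was 1.44, against -0.04 over all genes. Larger were Oasl1 (6.43 ± 1.23, adjusted p = 0.000837), Oas2 (5.40 ± 1.66, adjusted p = 0.0354), Oas1a (4.36 ± 0.84, adjusted p = 0.000937), Isg20 (4.12 ± 1.08, adjusted p = 0.0133), Samd9l (3.36 ± 0.86, adjusted p = 0.011) and Irf7 (2.58 ± 0.51, adjusted p = 0.00127), and smaller were Ifitm1 (-4.05 ± 1.15, adjusted p = 0.0233) and Irf8 (-3.50 ± 0.81, adjusted p = 0.00507). Oas2, Samd9l and Irf7 fell in CD31 lung BrM (log2 difference -3.74, -2.39 and -1.65) and were not called in PDGFRb lung BrM. Oasl1, Oas1a and Isg20 were called higher in PDGFRb lung BrM, and Oas1a also lower in CD31 lung BrM. The Oas2 call between the sorts was lost without any 1 of 11 of the 19 libraries (adjusted p up to 0.117), and that of Ifitm1 without PDGFRb library 55169-70. With the mouse as a block 5 were larger and 2 smaller, where 278 and 574 of all 18439 genes were. Oas2, Isg20 and Samd9l no longer passed there. limma-voom did not call Irf7 or Ifitm1. The larger count was 7 without PDGFRb non-tumor mouse 54135 or 56727, and the smaller count 1 without PDGFRb library 55169-70. With mouse 51435 as the only PDGFRb lung library 5 were larger, among them Oas1a (4.49, adjusted p = 0.0267) and Irf7 (3.18, adjusted p = 0.00635), 0 were smaller, and Oas2 turned to -0.69.

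Genes upstream of the response were read from fixed lists, whose counts stand against the shares over all genes given above (20.4% rose and 14.5% fell in CD31 lung BrM, 18.6% and 11.4% in CD31 breast BrM, 9.91% and 7.58% in PDGFRb lung BrM, 6.3% and 2.69% in PDGFRb breast BrM). Of 11 interferon genes, 0 had enough counts to be tested, and the most in any group was 34 counts, of Ifna4 in PDGFRb breast BrM. Of 10 receptor chains, kinases and STATs, 2 (20%) rose and 4 (40%) fell in CD31 lung BrM, 3 (30%) rose and 4 (40%) fell in CD31 breast BrM, 2 (20%) rose and 0 fell in PDGFRb lung BrM, and 3 (30%) rose and 0 fell in PDGFRb breast BrM. With mouse 51435 as the only PDGFRb lung library, 0 genes of these lists were called in PDGFRb lung BrM, Ifngr2 being at 1.87, Sting1 at 2.87 and Ptpn6 at 3.41. Ifnar1, a chain of the type I receptor, stood in the CD31 sort at 254 ± 62.9 CPM in lung BrM libraries, 249 ± 49.8 in those of breast BrM and 708 ± 79.1 in those of non-tumor brain (SD, n = 5 each), and fell in both (log2 difference -1.42 and -1.48). Il10rb, a chain of the interferon-lambda and IL-10 receptors, fell there too (log2 difference -2.16 in lung and -2.06 in breast BrM). Ifngr2, a chain of the interferon-gamma receptor, rose in both states of both sorts, by 1.84 and 1.79 in CD31 and 2.12 and 2.00 in PDGFRb lung and breast BrM.

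Of 16 nucleic acid sensors and adaptors, 14 were tested. In the CD31 sort 2 (14.3%) rose and 2 (14.3%) fell in lung BrM, and 2 (14.3%) rose and 1 (7.14%) fell in breast BrM, no more than the shares over all genes. In the PDGFRb sort 2 (14.3%) rose and 0 fell in lung BrM, and 3 (21.4%) rose and 0 fell in breast BrM. Sting1, the adaptor of cytosolic DNA sensing, rose in all 4, by 3.32 and 3.23 in CD31 lung and breast BrM and by 2.46 and 2.19 in PDGFRb lung and breast BrM, where the breast call was lost without any 1 of 8 of the 9 libraries (adjusted p up to 0.127). Of the other interferon regulatory factors, 4 of 6 tested fell in CD31 lung BrM, among them Irf1, which interferon-gamma induces (log2 difference -0.95). In PDGFRb breast BrM 2 rose, with Irf1 at 1.75, a call lost without breast mouse 53072 (adjusted p = 0.0573). Of 15 brakes of the response, 4 (26.7%) rose and 5 (33.3%) fell in CD31 lung BrM, 4 (26.7%) rose and 2 (13.3%) fell in CD31 breast BrM, 1 (6.67%) rose and 0 fell in PDGFRb lung BrM, and 3 (20%) rose and 0 fell in PDGFRb breast BrM. Nlrc5, the activator of MHC class I genes, fell in CD31 lung BrM, with 6.68 ± 4.21 CPM against 27.8 ± 8.11 in non-tumor brain (SD, n = 5 each), and rose in PDGFRb breast BrM by 6.22 on the log2 scale, a call lost without any 1 of 8 of the 9 libraries (adjusted p up to 0.112). Ptpn6, a phosphatase of blood cells and epithelia, rose by 5.71 and 5.96 in CD31 lung and breast BrM and by 3.63 and 3.85 in PDGFRb lung and breast BrM.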

How the data were processed

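Per the labels' protocols, RNA was amplified with a SMART-Seq ultra-low-input kit and libraries were made with Nextera XT, without molecular barcodes, so intervals and floors cover counting error only. Per the submitters' processing notes, the build was mm10 and the tools included RSEM 1.3.3, STAR 2.7.9a, limma 3.50.3 and edgeR 3.36.0. The deposited expected counts are the authors' estimated counts per gene, not scaled, 5.25% of them not whole. The deposited FPKM values were scaled by the authors for length and depth. The deposited log2 values were not used.

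Groups were taken from titles and the mouse number as replicate. Expected counts were rounded, filtered with filterByExpr, scaled by TMM and tested with edgeR 4.0.16's quasi-likelihood test (robust) in R 4.3.3, with 1 fit of 3 groups per sort (14876 genes in CD31, 17028 in PDGFRb) and 1 fit of 6 groups and 28 libraries for comparisons between sorts (18548 genes). Calls rest on Benjamini-Hochberg adjustment over all genes tested, with a threshold of 0.05. Errors beside log2 differences are SE. CPM rest on TMM-scaled totals. Totals were 13.4 M to 20.4 M counts in PDGFRb lung BrM, 7.11 M to 23.9 M in PDGFRb breast BrM, 14.9 M to 22.5 M in PDGFRb non-tumor, 12.9 M to 18.1 M in CD31 lung BrM, 13.6 M to 20.8 M in CD31 breast BrM and 17.0 M to 20.8 M in CD31 non-tumor libraries. Any pair of replicates had a chi-square per degree of freedom of at least 17.6, and p-values measure the spread between mice or pools.

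13 mice gave both sorts, so libraries of a mouse are paired, yet 3 pairs had a correlation of deviations above 0.1 (range -0.12 to 0.33, median 0.0056). The comparisons between sorts were made without and with the mouse as a block. A gene with 0 counts in a group is given against 3 counts over the group, and one with 1 to 3 counts as a ratio with a 95% counting interval. The members and lists were chosen with earlier results of these data known. Values by library are given, per comparison, for up to 5 called members a direction with the largest change (mean log2 CPM 1 or more), and for Irf7, Irf9, Stat2 and Isg15.

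Tested on simulated data with 50 changed genes per fold, the CD31 fit recovered 22%, 52%, 84% and 98% of genes changed 2, 4, 16 and 64 times (breast BrM against non-tumor, 14455 genes), the PDGFRb fit 0%, 12%, 56% and 80% (the same comparison, 16306 genes), and the fit of all libraries 4%, 38%, 78% and 98% (PDGFRb against CD31 non-tumor, 17924 genes). Alternatives were DESeq2 1.42.0, limma-voom (limma 3.58.1), RLE scaling, no filter, a filter at 1 CPM in 4 libraries, date as a covariate, mouse 54135 by its cell type label or left out, the libraries with 2 mouse numbers left out, the PDGFRb lung libraries other than mouse 51435 left out, and each library left out.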

Additional observations from a re-analysis of the deposited data

Results flagged for a closer look

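Of 174 sets of 4 or 5 libraries, 1 for each of 29 named genes in each group, 18 held a library farther from the others than Dixon's 95% limit allows. That limit is made for independent sets of normally spread values. CPM of genes in the same libraries need not be so, and the 18 flags are not set against a chance rate. The PDGFRb lung BrM library of mouse 51435 accounted for 10 of them. It was the highest of its group for Ifit2 at 13.4 (next 1.29), Ifit3 at 69.4 (next 12.5), Isg15 at 24.8 (next 6.92), Rsad2 at 9.11 (next 1.28), Irf8 at 27.2 (next 12.5), Usp18 at 33.3 (next 8.07), Ifitm1 at 276 (next 33), Sp100 at 7.83 (next 1.88) and Ubd at 9.11 (next 1.76), all in CPM, and the lowest for Oas3 at 0.563 (next 8.05). The CD31 lung BrM library of the same mouse was the highest for Oas3, at 1.58 CPM (nearest 0.214), and for Ubd, at 16.8 CPM (nearest 1.72).

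Ifih1 was at 181 CPM (nearest 58.7) in PDGFRb breast BrM mouse 51950, the shallow library. Ifitm1 was at 108 CPM (nearest 18.4) in CD31 breast BrM mouse 52599. In PDGFRb non-tumor mouse 54132, Ifitm1 was at 593 CPM (nearest 293) and Ifi27 at 231 CPM (nearest 139). Oas3 was at 1.15 CPM (nearest 0) in PDGFRb non-tumor mouse 56740. Irf7 was the lowest, at 242 CPM (nearest 338), in CD31 non-tumor mouse 54135, whose labels disagree.

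The effect of metastasis differed between the sorts, PDGFRb minus CD31 on the log2 scale in edgeR's quasi-likelihood test, for 23 of the named genes and states. For lung BrM these were Oasl1 6.43 (adjusted p = 0.000837), Oas2 5.40 (adjusted p = 0.0354), Oas1a 4.36 (adjusted p = 0.000937), Isg20 4.12 (adjusted p = 0.0133), Samd9l 3.36 (adjusted p = 0.011), Ifit3 2.61 (adjusted p = 0.0332), Irf7 2.58 (adjusted p = 0.00127), Eif2ak2 2.14 (adjusted p = 0.049), Usp18 2.11 (adjusted p = 0.0297), Irf8 -3.50 (adjusted p = 0.00507) and Ifitm1 -4.05 (adjusted p = 0.0233). For breast BrM they were Oasl1 5.93 (adjusted p = 0.00293), Oas1a 5.67 (adjusted p = 0.000107), Ifi44 4.89 (adjusted p = 0.000107), Usp18 4.55 (adjusted p = 4.69e-05), Irf7 4.39 (adjusted p = 3.91e-06), Ifit1 4.26 (adjusted p = 0.035), Sp100 4.19 (adjusted p = 0.000107), Ifit3 3.45 (adjusted p = 0.00836), Trim30a 3.09 (adjusted p = 0.0367), Ifih1 2.998 (adjusted p = 0.0122), Isg15 2.91 (adjusted p = 0.00901) and Ifi27 1.39 (adjusted p = 0.0254). Calls were lost for Eif2ak2 without any 1 of 18 of the 19 libraries (adjusted p up to 0.207), Ifit3 in lung BrM without any 1 of 9 of the 19 libraries (adjusted p up to 0.324), Usp18 in lung BrM without any 1 of 6 of the 19 libraries (adjusted p up to 0.187), Trim30a without any 1 of 16 of the 19 libraries (adjusted p up to 0.0873), Ifit1 without any 1 of 12 of the 19 libraries (adjusted p up to 0.0797) and Ifi27 without any 1 of 7 of the 19 libraries (adjusted p up to 0.0823). Without PDGFRb lung BrM mouse 51435 the lung effect was 1.06 for Ifit3 and 1.13 for Usp18. No explanation was weighed.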

How the results depend on the processing

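With mouse 54135 grouped by its cell type label, which its Pecam1 and Pdgfrb levels given above go against, counts of called genes fell widely. Calls over all genes fell too, to 0 of 18548 between sorts in non-tumor brain. Higher and lower were 1 and 2 in PDGFRb lung BrM, and higher 3 in PDGFRb breast BrM. In CD31 lung BrM 8 were lower, and in CD31 breast BrM 8 were higher and 0 lower. Lung against breast BrM had 4 lower in the PDGFRb and 1 in the CD31 sort. Between sorts 0 were higher and 0 lower in non-tumor brain, 0 lower in breast BrM and 6 lower in lung BrM, and the effects had 0 larger and 0 smaller for lung and 0 larger for breast BrM. Ifitm1 in CD31 lung BrM (-0.95) and breast BrM (-0.50), Usp18 in the lung effect (-0.36) and Oas1a in PDGFRb lung BrM (-0.33) changed sign, as did Oas2 in the lung effect (-0.69) with mouse 51435 as the only PDGFRb lung library. With that mouse alone, 0 rose and 0 fell in PDGFRb lung BrM, 0 were lower against breast BrM, 1 was higher and 1 lower between sorts in lung BrM, and 5 were larger and 0 smaller in the lung effect. Without the libraries of 2 mouse numbers the same counts were 1 and 0, 1, 5 lower, and 7 and 0, with 0 lower between sorts in breast BrM.

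With date as a covariate, 1 rose and 19 fell in CD31 lung BrM, 8 rose and 3 fell in CD31 breast BrM, 0 rose in PDGFRb lung BrM, 5 rose in PDGFRb breast BrM, 3 and 0 were lower in lung than breast BrM of the PDGFRb and CD31 sorts, and 0 lower between sorts in breast BrM. Over all genes the date covariate left 89 higher in PDGFRb breast BrM. It left 90 and 0 lower in lung than breast BrM of the PDGFRb and CD31 sorts. With the replicate block (mouse), 0 were lower between sorts in breast BrM, where 797 of all 18439 genes were. In that fit 10 had a larger breast effect and 5 a larger lung effect. DESeq2 called 4 lower in PDGFRb lung BrM, 28 lower against breast BrM, 2 higher and 4 lower between sorts in breast BrM, and 1 smaller breast effect. limma-voom called 2 higher in CD31 lung BrM, 2 higher and 8 lower between sorts in breast BrM, 2 higher in lung BrM, and 1 smaller lung effect. Without a filter 2 rose in CD31 lung BrM, 3 fell in CD31 breast BrM, 0 were lower between sorts in breast BrM, and the lung effect had 6 larger and 1 smaller. The filter at 1 CPM gave 3 lower and RLE scaling 2 higher between sorts in breast BrM. Without mouse 54135 the lung effect had 7 larger. RLE moved the median of all genes from 0.10 to 0.27 between sorts in non-tumor brain, from -0.16 to -0.27 in PDGFRb breast BrM, from -0.03 to -0.15 in PDGFRb lung BrM and from -0.04 to -0.19 in the lung effect. The cause of these changes was not tested.

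Leaving out each library in turn gave 4 to 5 higher and 0 to 7 lower in PDGFRb lung BrM, 16 to 38 higher in PDGFRb breast BrM, 7 to 31 lower between these, 3 to 4 and 26 to 30 in CD31 lung BrM, 10 to 14 and 4 to 6 in CD31 breast BrM, and 18 to 33 lower between these. Between sorts it gave 2 to 2 and 30 to 33 in non-tumor brain, 1 to 2 and 0 to 4 in breast BrM, and 0 to 1 and 11 to 20 in lung BrM. The effects had 15 to 27 larger for breast, and 7 to 11 larger and 1 to 3 smaller for lung BrM. In the simulated PDGFRb data, genes changed 2 times were recovered in 0% of cases; the part of depth in this was not tested.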
